A study of Drosophila melanogaster with 23 samples.

Results

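The intervals described here are the binding peaks and histone mark peaks that the deposited lists place on the Y chromosome of Drosophila melanogaster. They were taken by chromosome name alone, from 22 lists, and came to 21744 of 942072 intervals (2.31%). A further 9487 intervals on separate scaffolds assigned to Y were not counted, because the lists give them another sequence name.

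All chromatin came from wild-type Oregon-R embryos 2 to 3 h after egg laying, fixed with 1.8% formaldehyde, with no mutant or treated group. Binding of 6 transcription factors, the patterning proteins Bicoid (Bcd), Dorsal (Dl), Caudal (Cad) and Twist (Twi) and the early chromatin factors Zelda (Zld) and GAGA factor (GAF), was mapped by ChIP-nexus, in which an exonuclease trims the precipitated DNA close to the bound protein, in 3 libraries per factor. The histone marks H3K4me1 and H3K27ac were mapped by ChIP-seq, in 2 libraries per mark. The labels do not say whether libraries of one antibody came from separate collections. The p-values of permutation tests therefore measure the spread between these libraries, which may be technical. Sign-flip tests use the 6 factor means, so their p-values measure the spread between factors, and 0.031 is the smallest they can give.

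The Y chromosome of the fly is almost entirely heterochromatin, made of satellite DNA, transposons and repeated gene families, and is present in males alone. Its few single-copy protein-coding genes, such as the dynein heavy chain genes kl-2, kl-3 and kl-5, are long, are interrupted by very large introns, and are used mainly in the male germ line. Its Su(Ste) repeats make the small RNAs that silence Stellate genes on X, and its Mst77Y genes are extra copies of a gene for a sperm chromatin protein. Bcd and Cad pattern the head-to-tail axis, Dl and Twi the back-to-belly axis, and Zld and GAF open chromatin as the embryo starts its own transcription. GAF binds GAGA repeats and is also known to associate with satellite DNA. H3K27ac and H3K4me1 mark active and primed regulatory elements, respectively.

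The 2 H3K4me1 libraries stood apart. The first held 8 Y intervals in a list of 13403, and the second held 75 in a list of 6546, so each statement on this mark is given per library. Much of Y is repeated, and how reads with several possible positions were placed is not given in the sources used here. Values inside repeated families are therefore uncertain as to which copy the reads came from. The lists hold no read counts, so depth is unknown and counting error cannot be stated. Coordinates are those of dm6, and gene positions are those of a RefSeq table of the same release, which gives neither strand nor exons.

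Each ChIP-nexus library of the 5 factors other than GAF placed more than 1000 intervals on Y. The numbers were 1526, 1418 and 1356 for Bcd, 1398, 1176 and 1506 for Dl, and 1173, 1344 and 1292 for Cad. Zld had 1180, 1206 and 1405, Twi had 1003, 1149 and 1235, and GAF had 675, 756 and 716. Every GAF library lay below every other ChIP-nexus library. GAF averaged 716 ± 40.5 intervals (SD, n = 3) against a mean of 1291 in the other 15 libraries (exact two-sided permutation test over 816 splits, p = 0.0012, adjusted over the 6 factors 0.0074). The GAF lists were also shorter as a whole, with 30281 to 34602 intervals against 45685 to 60625.

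GAF was also lowest in covered length. GAF intervals covered 180, 207 and 213 kb of Y, Twi intervals 275, 320 and 367 kb, and those of the other 4 factors 339 to 490 kb. The GAF mean of 200 kb differed from that of the other 15 libraries by −198 kb (exact permutation test, adjusted p = 0.0074), and no other factor passed in number or length. Among intervals with a −log10 q of at least 10, GAF no longer stood below the rest in number (25.7 above, exact permutation test, adjusted p = 0.93), and its covered length no longer passed (adjusted p = 0.24). Among the 5000 strongest intervals of each list, GAF had 82.5 more Y intervals than the other libraries and 19.6 kb more covered length (exact permutation tests, adjusted p = 0.0074 and 0.04). Among the 1000 strongest, each GAF list had 13 Y intervals, fewer than the means of Bcd, Cad, Dl and Zld and more than that of Twi.

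**Figure D1:**
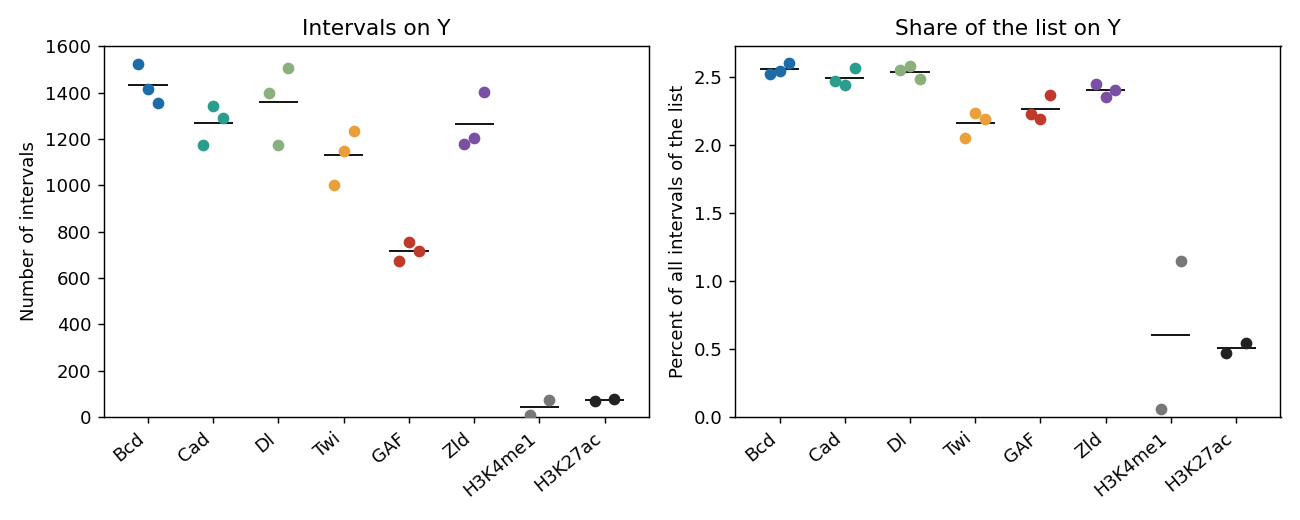
Number of intervals on Y (left) and their percentage of all intervals of the list (right), by antibody. Each point is a library and the line is the mean of the group. The 3 GAF libraries lie between 675 and 756 intervals, below all other ChIP-nexus libraries, and the 4 histone libraries lie between 8 and 77.

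Y took a nearly constant share of the ChIP-nexus lists, from 2.05% to 2.60%. Bcd averaged 2.55% ± 0.041, Dl 2.54% ± 0.045, Cad 2.49% ± 0.063, Zld 2.40% ± 0.048, GAF 2.26% ± 0.094 and Twi 2.16% ± 0.094 (SD, n = 3 each). The Twi mean minus that of the other 15 libraries was −0.29 points (exact permutation test, p = 0.0061, adjusted 0.037). That call rested on all 3 Twi libraries: without replicate 1, 2 or 3 the adjusted p was 0.11, 0.088 or 0.13, again by exact permutation. With all libraries, the Twi call held among intervals with a −log10 q of at least 10 (−0.668 points, exact adjusted p = 0.011). It also held over the arms and Y alone (−0.315, exact adjusted p = 0.029) and by covered bases (−0.455, exact adjusted p = 0.0074). Among the 5000 strongest intervals it did not (−1.02, exact adjusted p = 0.077). GAF did not pass over whole lists (adjusted p = 0.16, exact test). Among the 5000 strongest intervals the direction for GAF turned: its Y share was 1.65 percentage points above the other factors (exact permutation test, adjusted p = 0.0074), and it was 0.71 points above among intervals with a −log10 q of at least 10 (adjusted p = 0.011).

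Per megabase, ChIP-nexus intervals were about as dense on Y as elsewhere. The 18 libraries had 184 to 416 intervals per Mb of Y and 203 to 407 per Mb of the arms of the other chromosomes. They covered 4.91% to 13.4% of Y and 6.30% to 13.5% of those arms. In each Twi and each GAF library the density on Y was the lower of the 2, and in each Bcd and each Dl library it was the higher.

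The histone marks were sparse on Y. H3K27ac had 70 and 77 Y intervals and H3K4me1 had 8 and 75, covering 19.6, 22, 1.62 and 19.9 kb. Their density on Y was 2.18 to 21 intervals per Mb, against 45.3 to 110 per Mb of the other arms, and the Y density was lower in all 4 libraries. Y took 0.47% and 0.54% of the H3K27ac lists and 0.060% and 1.15% of the H3K4me1 lists. The mean Y share was 1.84 percentage points higher in the 18 ChIP-nexus libraries than in the 4 histone libraries (exact two-sided permutation test over 7315 splits, p = 0.00014). The 2 groups did not overlap, and leaving out any 1 library kept the difference between 1.68 and 2.04 points. The assay and the target changed together, so the part of either in this difference cannot be told apart.

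Few of the Y regions that each factor covered in all its libraries overlapped H3K27ac. The mark itself was scarce there: its intervals covered 0.535% and 0.601% of Y, against 9.05% and 8.93% of the other arms. Low overlap and this scarcity cannot be told apart in these values, which are given as a description. Regions were called reproducible where every library of an antibody covered the same 50 bp or more. Of 994 such Bcd regions on Y, 20 (2.01%) overlapped a reproducible H3K27ac region, against 27.7% on the other arms. The values were 2.13% against 28.1% for Cad, 2.24% against 26.5% for Twi, 2.42% against 29.8% for Zld and 1.69% against 40.8% for Dl. GAF had the lowest share on Y, 4 of 591 regions (0.68%), against 24.1% on the other arms. All 6 values share the same 2 H3K27ac libraries. Seen from the other side, Zld or Cad regions each overlapped 21 of the 60 reproducible H3K27ac regions on Y (35%), and GAF regions overlapped 4 (6.67%). On the other arms these shares were 60.9%, 57.9% and 32.7%.

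The factors differed in how strong their Y intervals were. Within each list the intervals were ranked by −log10 p, with the percentile 100 as the strongest. The median Y interval of GAF stood at the percentiles 65.8, 72.0 and 68.5, while the median on the other arms stood between 50.3 and 50.6. The median Y interval of Twi stood at 35.8, 34.0 and 37.7, against 51.5 to 52.3 on the other arms. The remaining sequences, outside Y and these arms, include the separate Y scaffolds. On them the Twi median was also low, at 31.3, 39.9 and 36.9, and the GAF median was 38.9, 39.3 and 40.3. The 2 factors lay on opposite sides of their own arms in every library.

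The Y-minus-arms difference was 18.3 points for GAF, which was 24.2 points above the mean of the other factors (exact permutation test over 816 splits, adjusted p = 0.0074). For Twi it was −16.0, a difference of −16.98 points from the mean of the others (exact permutation test, adjusted p = 0.044). The Twi call did not hold without any single Twi library (adjusted p = 0.088 in each case, exact permutation), nor without Dl replicate 3 or Zld replicate 3 (0.053). The Y-minus-arms difference was −8.69 points for Cad, −5.56 for Bcd, −0.19 for Dl and 1.20 for Zld; none of these 4 factors passed against the rest. Over all 6 factors the mean difference of −1.81 points did not pass (exact sign-flip test, p = 0.72).

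The choice of strength measure mattered. By fold enrichment, the median Y interval was above the median of the other arms in all 18 ChIP-nexus libraries. It was 10.1, 8.20 and 8.93 against 5.92, 5.02 and 5.31 for GAF, and 4.35, 3.82 and 3.96 against 4.05, 3.55 and 3.51 for Twi. Ranked by fold, Y intervals stood 14.0 points above the other arms on average over the 6 factors (exact sign-flip test, p = 0.031). On that scale GAF was 4.24 points above the other factors and no longer passed (exact permutation test, adjusted p = 0.39). Dl was then 10.8 points above the rest (adjusted p = 0.0074, exact test), and Twi still stood lower, by −9.12 points (exact adjusted p = 0.033). Folds and p-values are the authors' own values for each peak.

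**Figure D2:**
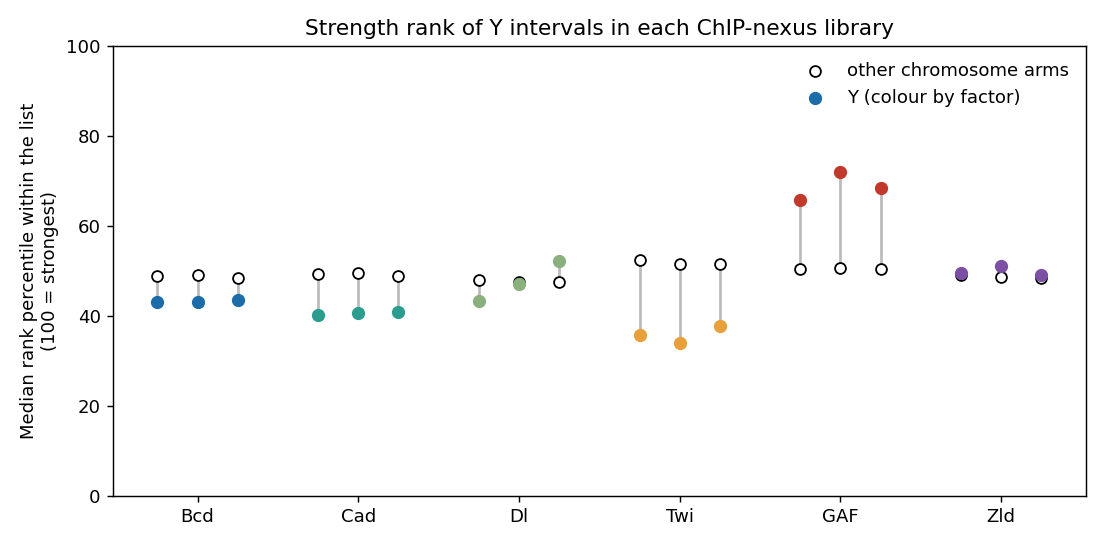
Median rank percentile of intervals within each ChIP-nexus list, ranked by −log10 p (vertical axis, 100 is the strongest), for Y (filled) and for the arms of the other chromosomes (open), by factor and library. GAF lies at 65.8 to 72.0 on Y and Twi at 34.0 to 37.7, on opposite sides of values near 50.

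The median Y interval was 225 to 289 bp wide over the ChIP-nexus libraries. The Y-minus-arms difference in median width averaged −4.64 bp over the 6 factors (exact sign-flip test, p = 0.53). Among the 5000 strongest intervals of each list it was −106 bp (exact sign-flip test, p = 0.031). Over whole lists, Dl intervals were 20.2 bp wider on Y and the Twi difference was −30 bp.

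Where intervals of any of the 22 lists touched, they were merged into 2854 Y regions with a median width of 323 bp, which together spanned 1266 kb of the 3.67 Mb sequence. A single list accounted for 693 of these regions (24.3%), against 27.5% of regions over all sequences. At the other end, 164 Y regions (5.75%) were covered in all 18 ChIP-nexus lists, against 4.93% over all sequences and 4.21% on the other arms. Both shares on Y lay near the background. The 164 regions were wide, with a median of 859 bp, and 51 of them overlapped a gene (31.1%, against 30.1% of all Y regions).

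Merging joins neighbouring intervals, so the shared regions were also counted by base. Stretches of at least 50 bp lay in all 18 ChIP-nexus lists at 112 places on Y, 23.2 kb in all. Bases covered in all 18 lists, in stretches of any length, made up 1.86% of those covered in any ChIP-nexus list, against 1.79% on the other arms. When each list had to cover at least 50% of a merged region, 29 of the 164 regions remained, and with a −log10 q of at least 10 there were 51.

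Few Y regions were common to every antibody. Only 4 of the 2854 regions (0.140%) were covered by all 8 antibodies in at least 1 list each, against 2.36% over all sequences. None of the 2854 regions was covered in all 22 lists, against 0.931% over all sequences. H3K4me1 replicate 1 held 8 Y intervals, so no more than 8 regions could have been, and this contrast says little about Y. Regions covered in 21 lists numbered 3, at Y:734643-735993, Y:2900711-2902265 and Y:3505354-3507814, each missing H3K4me1 replicate 1 alone. The fourth, at Y:1353607-1355450, lacked GAF replicate 3 as well. All 4 lay outside genes of the table, the nearest being ARY, FDY, Pp1-Y2 and lncRNA:CR40629 at 30595 to 229735 bp.

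**Figure D3:**
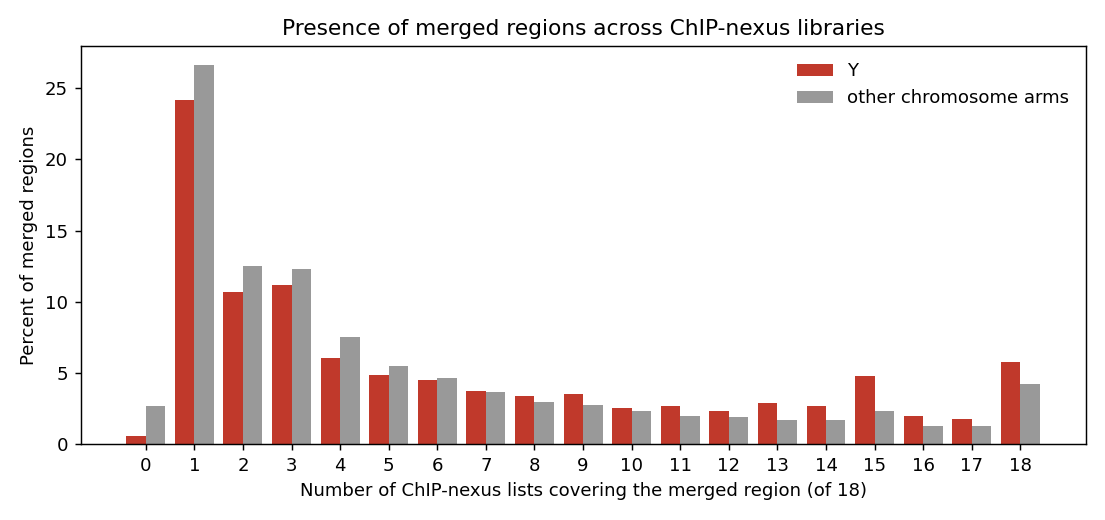
Percentage of merged regions (vertical axis) covered in 0 to 18 ChIP-nexus lists (horizontal axis), for Y and for the arms of the other chromosomes. On Y 5.75% of regions lie in all 18 lists, against 4.21% on the other arms.

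The 4 regions common to all antibodies were not among the strongest. At Y:734643-735993 the fold was 12.5 to 13.0 for Bcd and 15.7 to 19.1 for Twi, and 2.29 and 2.43 for H3K27ac. At Y:3505354-3507814 GAF had folds of 29.6, 30.6 and 29.2, while Bcd had 4.16, 3.55 and 3.63 and Dl 2.98, 3.09 and 2.79. At Y:2900711-2902265 Zld had 23.5, 25.3 and 24.0 and GAF 24.6, 24.3 and 23.1, against 6.15 to 8.34 for Bcd, Cad and Dl. The region at Y:1353607-1355450 held the best reproducible H3K27ac interval on Y, with folds of 4.49 and 4.55 and ranks of 2050 and 1665 in its lists. The high and low groups named at the first 3 of these regions were picked from the folds themselves. Factors not named lay between or among them. GAF ran from 8.82 to 15.1 at Y:734643-735993. Twi ran from 9.51 to 10.8 at Y:3505354-3507814 and from 14.5 to 21.1 at Y:2900711-2902265.

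The strongest Y regions found in all 18 ChIP-nexus lists were picked by mean rank, and they ranked high in most lists. Ranks ran down to 6320 for Twi and 2408 for Cad at Y:859734-860613, and to 2209 for GAF at Y:652861-653328. The first region of the set was Y:1642059-1642655, inside the gene Ppr-Y. It ranked 2, 4 and 4 for Bcd, 5, 7 and 4 for Cad, 4, 3 and 4 for Dl, 2, 2 and 1 for GAF, 6, 7 and 4 for Zld, and 54, 6 and 51 for Twi. It was the best reproducible Y region of each of the 6 factors. Its fold lay between 36.3 and 41.6 in all 18 libraries, whatever the antibody, with a median of 37.7.

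Similar regions lay near the low end of the sequence. The region Y:203359-203815, 11339 bp from PRY, had folds of 36.7 to 43.7 and ranked 6 to 14 in the 15 lists other than Twi. The region Y:124132-124818 in kl-5, a dynein heavy chain gene, had folds of 24.8 to 36.8, and GAF had the 3 lowest values. The region Y:652861-653328 in kl-2, another dynein heavy chain gene, had folds of 26.0 to 33.2. By −log10 p it ranked 2209, 1103 and 1185 for GAF and 14 to 80 for Bcd, Cad, Dl and Zld.

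Several others lay toward the high end. The region Y:3562261-3562714 in ORY had folds of 9.86 to 17.6, and Y:3652810-3653033 in CCY had folds of 46.0 to 66.3. The region Y:3667180-3667352 ends at the highest Y position of the lists, 252 bp beyond CCY, and had folds of 51.1 to 66.5. GAF was highest there, at 66.5, 66.4 and 66.4, and Twi had the lowest mean, at 51.1, 55.6 and 58.8.

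The remaining 3 regions of the set differed more between factors. At Y:3567060-3567257 in ORY the GAF folds of 46.4, 47.0 and 39.1 lay above all others, which ran from 19.6 to 29.0, and it ranked 1, 1 and 4 for GAF. At Y:1456951-1457154, 179420 bp from Ppr-Y, GAF again stood apart at 64.5 to 65.0, against 35.4 to 52.7. At Y:859734-860613, 9279 bp from the nearest gene of the first Su(Ste) array, GAF and Zld had 25.6 to 28.3 and Twi 11.4 to 13.5.

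How even the fold was across factors was measured as the coefficient of variation of the 6 factor means. It was 4.27% for the Ppr-Y region, 5.14% for the region near PRY, 5.98% for the region at the end of the sequence and 6.42% for the region in kl-2. Of the 164 Y regions in all 18 lists, 6 were under 10% (3.66%) and 15 under 20% (9.15%). On the other arms 10 of 5434 were under 10% (0.18%) and 100 under 20% (1.84%). The medians were the same, 63.6% on Y and 63.5% elsewhere, so most shared Y regions varied between factors as much as shared regions did on the other arms. This is a description of the lists, with no test. H3K4me1 replicate 2 also listed the regions near PRY and in Ppr-Y, kl-5 and kl-2, each with a fold of 1.70 at rank 749, and neither H3K27ac list held them.

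**Figure D4:**
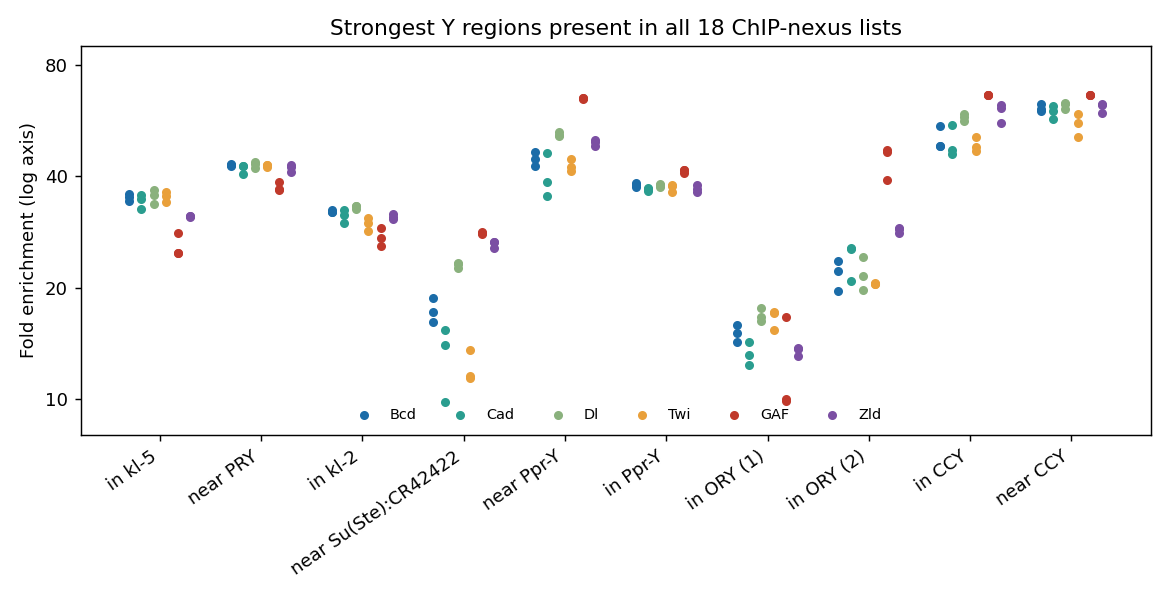
Fold enrichment (vertical axis, log scale) of the 10 Y regions with the highest mean rank among those in all 18 ChIP-nexus lists, named by the gene they lie in or nearest to. Each point is a library, coloured by factor. The region in Ppr-Y lies between 36.3 and 41.6 in all libraries, while the second region in ORY is highest for GAF at 39.1 to 47.0.

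Regions of a single factor were most numerous for GAF. Of the 2854 Y regions, 85 (2.98%) were covered in all 3 GAF lists and in no other list, against 1.35% over all sequences. The counts were 29 for Bcd (1.02%, against 1.26%), 28 for Twi (0.98%, against 1.53%), 19 for Cad (0.67%, against 1.29%), 19 for Zld (0.67%, against 0.305%) and 4 for Dl (0.14%, against 0.173%). H3K27ac alone had 7 regions (against 0.377%) and H3K4me1 alone had 3 (against 0.0528%). The best region of GAF alone was Y:3024902-3025206, 517 bp from the pseudogene CR42201, with folds of 35.2, 32.3 and 31.5. Another, Y:986161-986512, lay in the first Su(Ste) array, 231 bp from Su(Ste):CR42412, with folds of 38.6, 34.9 and 32.4. The third, Y:882933-883189, had folds of 10.3, 9.39 and 5.27.

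GAF was also the factor most often missing. Of 296 Y regions in all 15 lists of the other factors, 88 (29.7%) were in no GAF list, against 20.8% on the other arms. The same share was 3.98% for Twi, 1.73% for Cad, 1.10% for Dl and 0 of 170 and 0 of 168 regions for Bcd and Zld. On the other arms it was 1.10% for Twi, 1.19% for Cad, 1.18% for Dl, 0.86% for Bcd and 0.13% for Zld. Among the 6 factors, GAF regions were thus both the most often solitary and the most often absent on Y. GAF was the most often absent on the other arms too, and its lists were the shortest of the 6 factors.

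Libraries of 1 factor shared their Y positions more than those of unlike factors did. The Jaccard index, meaning the bases covered by both lists over those covered by either, averaged 0.557 over 18 same-factor pairs and 0.288 over 135 pairs of different factors (permutation test with 100000 resamples, one-sided, p = 1e-05, the smallest they can give). On the other arms the means were 0.536 and 0.257. GAF libraries were the most alike on Y, at 0.718 ± 0.005 (SD over 3 pairs, which share libraries), against 0.617 on the other arms. Dl was the least alike, at 0.400 ± 0.017, though this was above its 0.287 on the other arms. Twi went the other way, with 0.545 on Y and 0.647 elsewhere. Averaged over the 6 factors, the Y-minus-arms difference was 0.022 and did not pass (exact sign-flip test, p = 0.53).

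Among pairs of different factors, the 45 pairs with GAF averaged 0.158 on Y and the 90 pairs without GAF averaged 0.353. The 2 sets did not overlap (0.112 to 0.211 and 0.242 to 0.446). On the other arms the means were 0.177 and 0.296. The sets did not overlap there either, with pairs up to 0.221 with GAF and from 0.247 without it. On Y, Cad with Zld was the closest pair, at 0.423, and Dl with GAF the most distant, at 0.128. The factor whose regions GAF regions overlapped most often on Y was Twi: 266 of 591 GAF regions overlapped a Twi region (45.0%), and 263 of 760 Twi regions overlapped a GAF region (34.6%). On the other arms these shares were 50.4% and 28.7%. The 2 H3K27ac lists had an index of 0.568 on Y and 0.768 on the other arms, and the 2 H3K4me1 lists 0.081 and 0.183.

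Most Y summits lay outside annotated genes, as does most of the sequence. Genes of the table make up 30.1% of Y and held 22.2% to 29.0% of Y summits in the ChIP-nexus lists. The table places 123 genes on Y, of which 24 are protein-coding, 36 are long noncoding RNA genes and 63 are pseudogenes. Of the 14 named single genes and families looked up, kl-1 and PCKR had no entry and are not analysed here. The 12 listed protein-coding genes make up 27.8% of the sequence and held 21.1% to 25.8% of Y summits in the ChIP-nexus lists, a share below their share of length in all 18. No factor passed a test of this share against the rest (exact permutation tests, adjusted over 18 tests, p from 0.12 to 0.96). With a −log10 q of at least 10, Dl passed, at 2.13 percentage points above the others (exact adjusted p = 0.037). Without GAF replicate 2, GAF passed, at −2.22 points (exact adjusted p = 0.044).

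The long fertility genes held most of these summits. Ppr-Y, 248 kb long, had 34 to 104 summits per ChIP-nexus list (median 77), and kl-3, a dynein heavy chain gene of 227 kb, had 32 to 89 (median 69.5). WDY, 214 kb long and coding for a WD-repeat protein, had 35 to 91 (median 65.5), and kl-5 had 14 to 48 (median 29). Per 10 kb, the mean over the 18 libraries was 3.02 in Ppr-Y, 2.99 in WDY, 2.91 in kl-3, 2.45 in kl-5, 2.23 in kl-2 and 1.97 in ORY, against 3.26 over the whole Y. PRY was the densest of the genes above 10 kb, at 3.41 per 10 kb, and CCY the sparsest, at 0.69. In each of these genes except CCY the GAF mean was the lowest of the 6 factors, as it was for the whole chromosome, where GAF had 1.95 summits per 10 kb.

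The short genes held few summits. Pp1-Y1, a protein phosphatase gene of 0.95 kb, had 0 in all 22 lists, and Pp1-Y2 had 1 summit, in 1 Cad library. ARY, an aldehyde reductase gene, had a summit in 2 Twi libraries alone. FDY had 1 summit in 13 lists, among them all 3 Bcd and all 3 Twi libraries and both H3K27ac libraries, and none in the GAF lists.

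Both repeated gene families held a smaller share of GAF summits than of the other factors' summits. The 34 Su(Ste) genes occupy 1.01% of Y. They held 3, 4 and 5 GAF summits (0.44%, 0.53% and 0.70% of Y summits), and 16 to 31 summits in the other 15 libraries (1.36% to 2.59%). The GAF mean differed from that of the others by −1.39 percentage points (exact permutation test, adjusted over 18 tests, p = 0.011). The Mst77Y cluster, Y:3284939-3354870 (69.9 kb), held 1 summit in each GAF list, against 5, 8 and 9 for Twi and 11 to 21 for the other 4 factors. The GAF mean differed from that of the others by −0.97 percentage points (adjusted p = 0.011, exact permutation test). Neither call held without GAF replicate 1 or 3 (adjusted p = 0.066, exact permutation), though the GAF shares stayed below every other library. With a GAF library left out, the unadjusted p of 0.0074 (exact permutation) was the smallest that test can give. The loss came with the adjustment over 18 tests, so it cannot show a dependence on those libraries. The Mst77Y call also did not hold with a −log10 q of at least 10 (adjusted p = 0.12, exact test). Histone summits in Su(Ste) genes numbered 0 in all 4 lists.

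GAF summits were more often beside Su(Ste) genes than inside them. In every GAF library, 20 of the 34 Su(Ste) entries had a summit within 200 bp outside either end, against 2 to 11 entries in the other ChIP-nexus libraries. Inside the genes the order was turned. Of the 34 entries, 7 overlap another one, so that 1 summit can lie in several of them, and the inside count was made over the other 27. Of these, 2, 2 and 5 held a GAF summit, against 12 to 24 for the other factors. The median distances were 93 to 97 bp before the low end and 92 to 102 bp past the high end. At Su(Ste):CR42429 (Y:2559809-2561503) the 3 GAF libraries had summits 92, 93 and 92 bp below the low end and 89, 89 and 78 bp above the high end. At Su(Ste):CR42424 (Y:2593622-2595311) they lay 93, 89 and 96 bp below and 86, 87 and 84 bp above. At Su(Ste):CR42431 (Y:2562678-2563924) the lower summits were 92, 98 and 98 bp away and the upper ones 523, 513 and 537 bp away. These genes are near-identical copies, so the summits of different copies need not be independent.

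The Su(Ste) genes form 3 groups in the table, with 7 entries at the low end of the sequence, 24 in an array of 171 kb from Y:869892-1040412, and 3 in Y:2559809-2595311. The 100 kb window Y:2500001-2600000 around the last group held the most summits of any full window in 15 of 18 ChIP-nexus lists. For GAF it held 66, 68 and 65 summits, 9.78%, 8.99% and 9.08% of all its Y summits, with a median of 17.5 to 19 summits over the 36 full windows. The window Y:900001-1000000 in the larger array came second for GAF, with 43, 44 and 45 summits. The same window around the last group held 48 to 71 summits of the other factors, which was 3.87% to 5.59% of theirs. No H3K4me1 or H3K27ac summit lay in it.

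Within that window GAF summits followed a regular pattern of short and long gaps. Gaps between neighbouring summits fell into a short class with medians of 980, 981 and 980 bp and a long class with medians of 1881, 1876 and 1878 bp. The distance to the second-next summit had medians of 2861, 2855 and 2859 bp, and 82.8%, 83.3% and 84.1% of these distances lay between 2700 and 3000 bp. For the other factors 19.1% to 57.6% lay in this range, with Bcd highest at 42.9%, 46.0% and 57.6%. GAF intervals in the window were also strong, with median rank percentiles of 76.3, 84.1 and 83.7, against 22.4 to 60.0 for the other factors. The spacing is described without a test, and the distance classes were chosen after the gaps were seen.

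**Figure D5:**
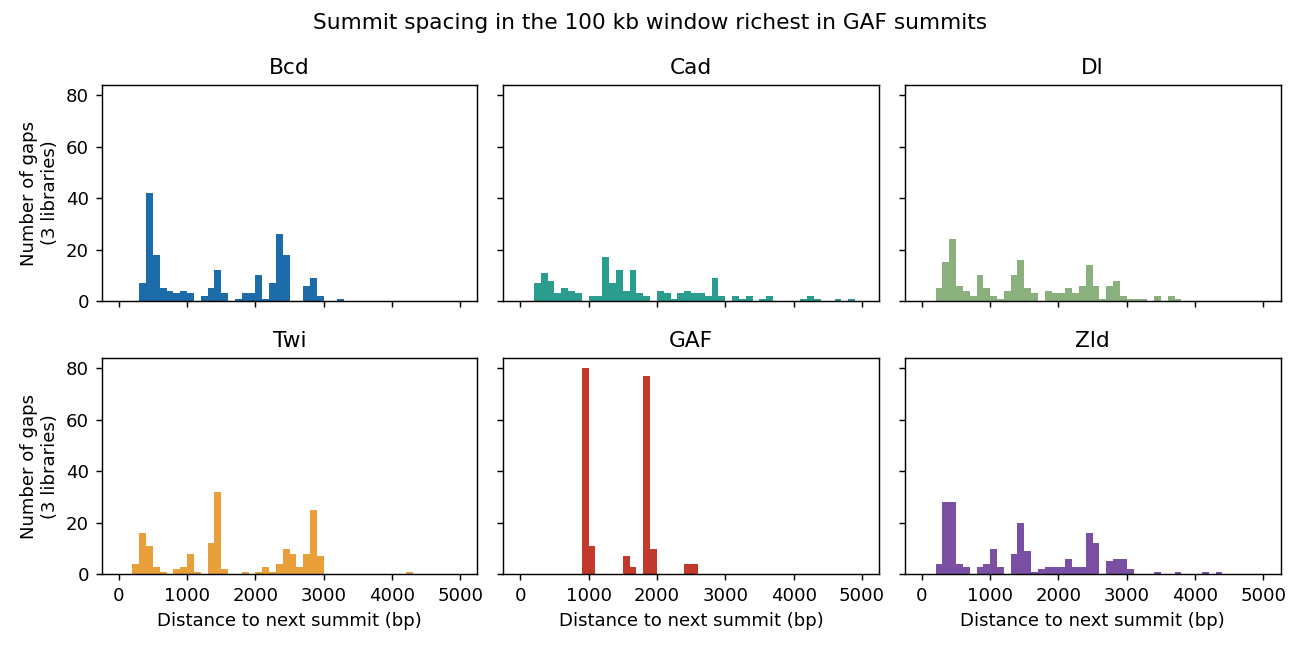
Number of gaps of each length between neighbouring summits (horizontal axis, bp, in steps of 100 bp) in the 100 kb window richest in GAF summits, with the 3 libraries of a factor added together. GAF gaps gather near 980 and 1880 bp, while those of the other factors spread wider. Gaps above 5000 bp, 10 in all and 0 of them of GAF, are not drawn.

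The few marked regions on Y had their own positions. Of the Y regions with H3K27ac in both lists, which numbered 48, 8 were also in all 18 ChIP-nexus lists. Of all 2854 Y regions, 164 (5.75%) were in all 18. The matching share for H3K27ac regions of the other arms is not given here. H3K27ac summits were most numerous in Y:300001-400000, with 8 and 9, and the gene kl-3, whose low end lies in this window, held 9 and 10 of the H3K27ac summits of Y. The other listed genes held 0 to 2 per H3K27ac list. The best H3K4me1 region found in both lists was Y:478950-479602, also in kl-3, at ranks 57 and 12 with folds of 6.30 and 18.6. It was in all 18 ChIP-nexus lists and in neither H3K27ac list, and Zld had the highest mean fold of the 6 factors there, with 20.6, 15.7 and 7.89.

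H3K4me1 in both lists and nothing else was found at 3 regions, at Y:2696427-2696658, Y:2748160-2748418 and Y:2753714-2753997. Their folds were 3.76, 3.61 and 4.28 in the first library and 12.2, 12.9 and 15.0 in the second. They made up 3 of the 8 Y regions that both H3K4me1 lists covered. The region of H3K27ac alone with the highest mean rank, Y:1826175-1826414, lay in Ppr-Y and had folds of 3.92 and 3.65. Another, Y:2772102-2772544, had higher folds, 5.43 and 3.99.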

How the data were processed

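Each of 22 libraries has 1 peak list, deposited by the authors without a header. Tools named in the submitters' processing notes are cutadapt 2.5, Bowtie2 2.3.5.1 and MACS2 2.2.7.1, with build dm6; no source used here gives thresholds, controls or the treatment of repeated sequence. The deposited score is about 10 times the −log10 q value. Deposited columns also hold a fold enrichment (a ratio) and −log10 p and q. The whole cell extract was not used here.

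Intervals were taken by chromosome name; those touching by at least 1 bp were merged. Each factor (3 libraries) was compared with the other 15 by an exact two-sided permutation test with Benjamini-Hochberg adjustment over 6 factors, or over 18 tests for gene classes. Y was compared with the other arms by sign-flips over 6 factor means. Named regions are the 10 highest by mean rank among those in all 18 ChIP-nexus lists, the best region per antibody, and up to 3 regions of 1 antibody alone, plus the listed genes. The members, gene lists and tests were chosen with earlier results of these data known. The gene class and per-factor rank tests and the H3K27ac overlap were added after these lists were seen. Motifs and sequences were not analysed here. Scripts were tested on simulated data and used Python 3.11.15, NumPy 2.4.6, SciPy 1.17.1 and pandas 2.3.3.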

Additional observations from a re-analysis of the deposited data

Results flagged for a closer look

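The Y-minus-arms difference in median rank percentile differed between factors in a direct test. For GAF it was 24.2 points above the mean of the other factors (exact permutation test, adjusted p = 0.0074). For Twi it was −16.98 points relative to the others (exact permutation test, adjusted p = 0.044). The Twi median was also low on the sequences outside Y and the other arms, at 31.3 to 39.9. The GAF value was 4.24 when intervals were ranked by fold. Their cause was not tested.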

How the results depend on the processing

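Leaving out any 1 library left the direction and the call in place for 545 recomputed main values, while 8 lost their call and 11 turned sign without a call. For Zld the Y share difference from the other factors, −0.000448 over all libraries, ran from −0.0252 to 0.0252; for Dl the rank difference ran from −0.447 to 4.22. The Twi share ran from −0.328 to −0.238 and the Twi rank difference from −18.0 to −15.5, both losing their calls without a Twi library. Among gene classes, the Su(Ste) difference ran from −0.212 to 0.0192 for Cad and from −0.223 to 0.0602 for Zld, and the coding gene difference from −0.668 to 0.528 for Zld, none of them called.

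Deviations of same-numbered libraries of different factors correlated with a mean r of 0.065 (12 of 45 pairs above 0.1), against −0.032 between different numbers (9 of 90), and 11 of 18 libraries correlated best with their own number. As not every pair was above 0.1, the numbers were not taken to pair the libraries. The GAF and Zld lists carry the numbers 1, 3 and 4 and their titles 1, 2 and 3; title numbers were used, so the pairing of these 6 libraries is uncertain. With the replicate block, Twi lost its calls for Y share (−0.29, exact adjusted p = 0.056) and for rank (−16.98, exact adjusted p = 0.069), and no other call changed.

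Restricted to −log10 q of at least 10, the difference from the other factors in Y share was −0.0418 points for Bcd, −0.275 for Cad, 0.705 for GAF and 0.237 for Zld. In number it was −6.33 for Cad, −235 for Dl (exact adjusted p = 0.0074), 14.5 for Twi and 25.7 for GAF, and in length −61.4 kb for Dl and −45.5 kb for GAF. In rank it was −10.96 for Twi and −2.08 for Zld. In gene classes it was −0.265 for Cad and −0.116 for Zld in the Mst77Y cluster, and −0.374 for Twi in coding genes, while Dl gained calls in the Mst77Y cluster (1.18, exact adjusted p = 0.011) and in coding genes (2.13, exact adjusted p = 0.037). Among the 5000 strongest, the share difference was 1.65 for GAF, 0.0573 for Zld, −0.423 for Bcd, −0.431 for Cad and −1.02 for Twi. In number it was −21.1 for Bcd, −21.5 for Cad and 82.5 for GAF, and in length 19.6 kb for GAF, −22.03 for Twi, −9.96 for Cad and −5.80 for Bcd.

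By covered bases, Dl stood 0.409 points above the others (exact adjusted p = 0.011), and Twi kept its call at −0.455 (exact adjusted p = 0.0074). Ranked by fold, Dl stood at 10.8 and GAF at 4.24, and the mean Y-minus-arms rank was 14.0. The within-factor Jaccard difference was −0.0372 with the stricter q and −0.0275 among the 5000 strongest, where the width difference was −106 bp (exact p = 0.031). Regions in all 18 lists numbered 51 with the stricter q and 29 with 50% of the region covered in each list. The cause of these changes was not tested, except that the stricter settings hold fewer intervals. Read depth is unknown, which limits all interval counts.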
